A study of Bos taurus with 6 samples.

Results

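The miR-2284 and miR-2285 family was followed in primary bovine myoblasts, muscle precursor cells that were taken from fetal longissimus dorsi muscle and kept in differentiation medium. Its members were all rows of the miRNA list that are named bta-miR-2284 or bta-miR-2285, with any letters and arm, and the rule gave 52 of 765 miRNAs. Of these, 22 are named miR-2284 and 30 are named miR-2285. In the RSV group, 3 cultures received 20 μM resveratrol (a plant polyphenol), and in the DMSO group 3 cultures received the solvent alone. Both groups were sampled after 4 days in that medium. The study calls them independent experiments but does not say whether they came from different animals, so the p-values measure the spread between these cultures.

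A miRNA is a short RNA that is processed from a hairpin transcript and guides the Argonaute protein to mRNAs, which are then translated less or degraded. Target choice rests mostly on the seed near the 5′ end. The miR-2284 and miR-2285 family is known from cattle and other ruminants, where it has many gene copies with closely related sequences.

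The authors' table holds only a group mean for each miRNA, an average of 3 read counts that were each divided by the size factor of their library (normalized reads). A size factor corrects for sequencing depth. Because such an average can be written as whole reads over size factors, the reads of single libraries were worked back for 51 of the 52 members. These libraries carry no replicate number and are called a, b and c in order of falling size factor, which ran from 1.54 to 0.935 for RSV and from 0.922 to 0.729 for DMSO. The muscle miRNAs miR-206, miR-1, miR-133a and miR-133b were abundant, with group means from 5550 to 139464 normalized reads. Of the other muscle miRNAs, miR-486 had 558 in RSV against 572 in DMSO and miR-208b had 30.5 against 32.5. The row bta-miR-499 stood at 91.5, 162 and 89.8 normalized reads in RSV against 41.2, 44.9 and 52.1 in DMSO, without overlap (log2 fold change 1.27, limma voom adjusted p = 0.020). Its call was lost without any 1 of the DMSO libraries, with an adjusted p from 0.073 to 0.15. The blood miRNAs miR-142-5p, miR-142-3p and miR-150 were uneven. In RSV library c they stood at 66.3, 35.3 and 72.7 normalized reads, in RSV libraries a and b at 4.54 or less, and in the DMSO libraries between 1.09 and 41.2. The blood miRNA miR-451 had group means of 204 in RSV against 73.8 in DMSO. The liver miRNA miR-122 stood at 201 normalized reads in RSV library a and at 87.8 or less in the other libraries. The epithelial miRNAs miR-200a, miR-200b, miR-200c, miR-141, miR-429 and miR-205 had group means from 0.573 to 46.3, and the neuronal miR-124a had 0.356 in RSV against 3.44 in DMSO. For miR-9 the table has a row for each arm instead of the name looked for, miR-9-5p with 1109 in RSV against 1097 in DMSO and miR-9-3p with 64.8 against 55.2. Of the 22 marker miRNAs looked for, miR-124b had no row. The blood miRNA miR-223 was at 0 in the RSV group against 1.09, 3.64 and 9.60 normalized reads in the DMSO libraries. What these markers contribute to the results below was not tested, and each test was also run without each library.

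The family held a small share of the miRNA reads and 1 member made up most of it. The group means of the 52 members summed to 6634 of 6637955 normalized reads in RSV (0.0999%, 95% Wilson interval 0.0976 to 0.102) and to 7056 of 7340618 in DMSO (0.0961%, interval 0.0939 to 0.0984). The intervals treat normalized reads as counts and cover counting error only. The member bta-miR-2284x alone supplied 70.2% of the family's normalized reads in RSV and 72.5% in DMSO. Its group means were 4659 in RSV and 5115 in DMSO, which put it at rank 83 among the 765 miRNAs by the mean of both groups (called the level here). The reads of its single libraries could not be worked back at this height, so no spread can be given for it and its difference was not tested.

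Below bta-miR-2284x the levels fell 17.6-fold to the next member and then without a further gap. A level of at least 100 normalized reads was found for 8 members, a level from 10 to 100 for 19, from 5 to 10 for 5, from 1 to 5 for 9, and under 1 for 11. The median level was 12.3 normalized reads, and the median over all 765 miRNAs was 11.6. That overall median joins unlike sets. It was 1.49 in the 141 rows named miR-2286 to miR-2487, 1.09 in 169 candidates without a miRBase name and 190 in the 403 other named cattle miRNAs. The 30 members named miR-2285 had a median of 28.6 normalized reads and the 22 named miR-2284 had one of 1.37. The order was nearly the same in both groups, with a Spearman correlation of 0.976 between the group means over the 52 members, which share the same libraries.

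**Figure D1:**
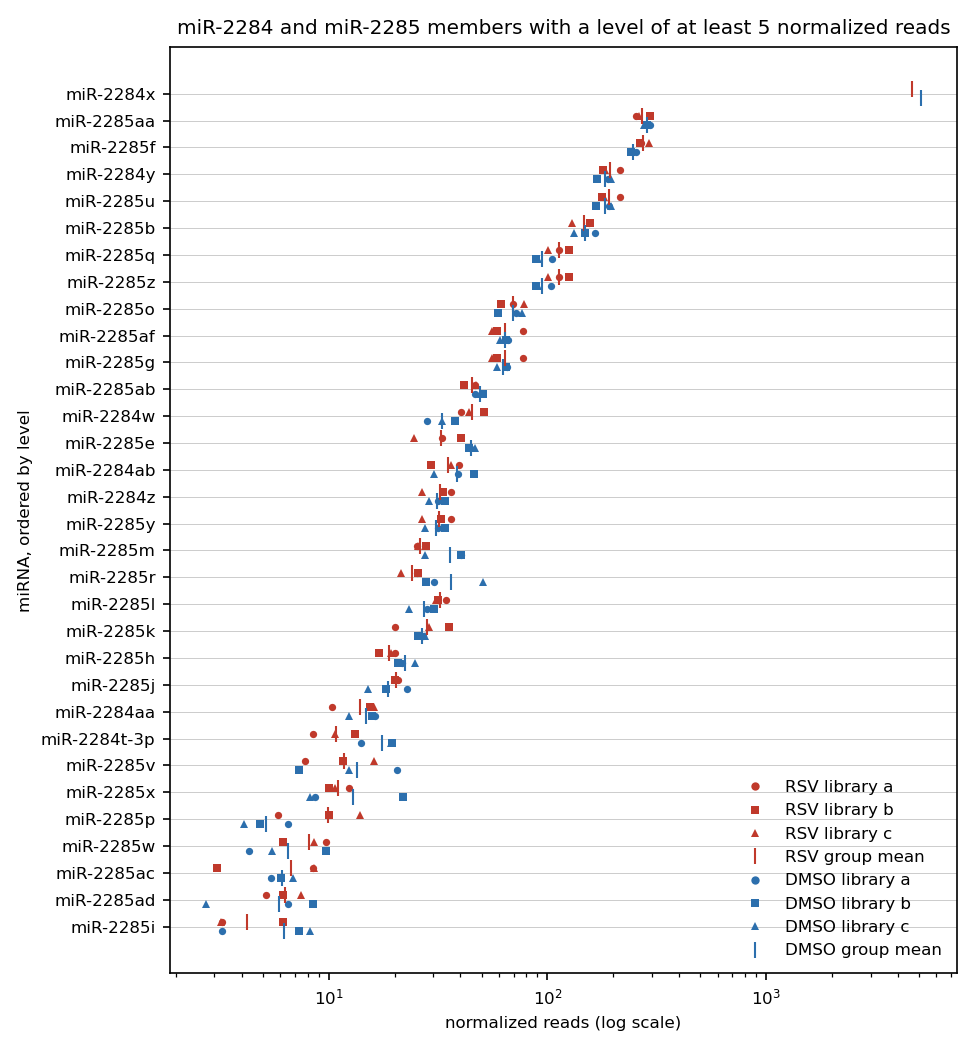
Normalized reads on a log axis for the 32 members with a level of at least 5, ordered by level, with RSV libraries in red, DMSO libraries in blue, a symbol for each library and a tick for each group mean. Only group means exist for miR-2284x, at 4659 and 5115, and the next member, miR-2285aa, lies between 255 and 294 in the 6 libraries.

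Second in level was bta-miR-2285aa, with 255, 293 and 262 normalized reads in RSV libraries a, b and c and 294, 284 and 276 in the DMSO libraries. The groups overlapped, and its log2 fold change of RSV against DMSO was −0.080 (standard error 0.088, 95% interval −0.28 to 0.11, limma voom adjusted p = 0.65). Next came bta-miR-2285f, with 268, 264 and 292 normalized reads in RSV against 253, 242 and 240 in DMSO. All 3 RSV libraries lay above all 3 DMSO libraries, yet the distance was small, with a log2 fold change of 0.16 (standard error 0.085, limma voom adjusted p = 0.30). Its interval of −0.031 to 0.35 excludes a change of 1 on the log2 scale in either direction. These members had the smallest standard errors of the family, with 1723 and 1635 reads over the 6 libraries. Their RSV reads were also the least securely worked back. There 0.0885 and 0.0919 combinations of whole reads were expected by chance, against a limit of 0.1.

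The next members had between 931 and 1190 reads in all. For bta-miR-2284y the normalized reads were 215, 180 and 183 in RSV against 190, 168 and 195 in DMSO. For bta-miR-2285b they were 154, 156 and 129 in RSV against 165, 148 and 132 in DMSO. Both pairs of groups overlapped, and the log2 fold changes were 0.075 (standard error 0.11) and −0.0093 (standard error 0.12). With 430 reads in all, bta-miR-2285o had 69.4, 61.1 and 78.0 normalized reads in RSV against 71.6, 59.5 and 76.8 in DMSO, and its group means of 69.5 and 69.3 nearly coincided. In the order by level, the neighbours bta-miR-2285aa and bta-miR-2285f, and likewise bta-miR-2284y and bta-miR-2285u, overlapped in their libraries, whereas every library of bta-miR-2285f lay above every library of bta-miR-2284y.

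Several members were counted with nearly the same reads as another member. In bta-miR-2285q the libraries held 174, 163 and 94 reads in RSV against 97, 73 and 66 in DMSO. In bta-miR-2285z they held 174, 163 and 94 reads in RSV against 96, 73 and 66 in DMSO. The rows thus differed by 1 read of 667.

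The same was seen in 3 more pairs. Between bta-miR-2285af, with 119, 76 and 52 reads in RSV against 61, 53 and 44 in DMSO, and bta-miR-2285g, 2 reads differed. Between bta-miR-2284z, with 56, 43 and 25 reads in RSV against 29, 28 and 21 in DMSO, and bta-miR-2285y, 2 reads differed as well. Between bta-miR-2284y, with 331, 233 and 171 reads in RSV against 175, 138 and 142 in DMSO, and bta-miR-2285u, 8 reads differed. Summed over the 6 libraries, the differences came to 0.15%, 0.50%, 1.0% and 0.67% of a pair's mean reads, and the next closest pair of members, bta-miR-2285l and bta-miR-2285y, differed by 8.7%. Rows this close cannot be read as separate measurements, and the file does not tell which gene copy the reads came from.

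**Figure D2:**
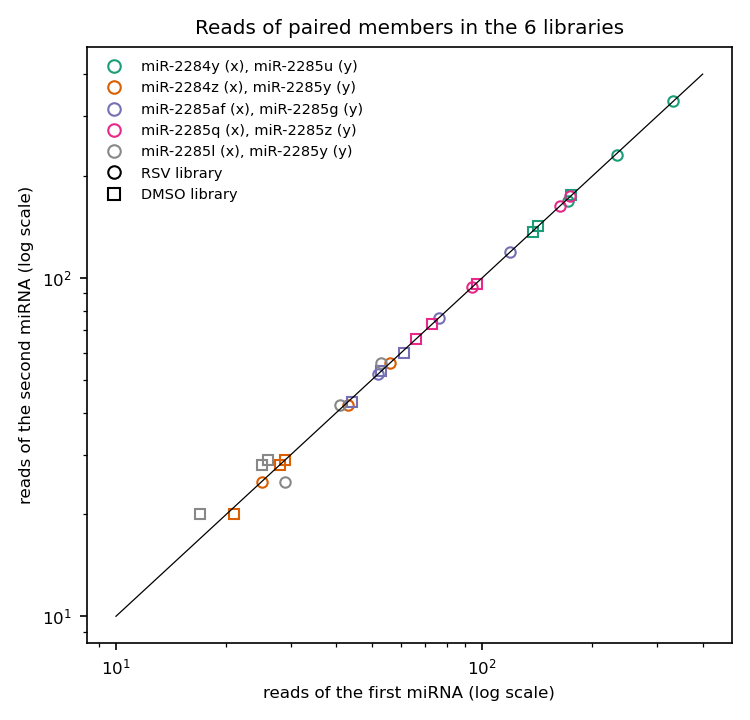
Reads of the first against the second miRNA of a pair on log axes, 1 point for each of the 6 libraries, with RSV as circles and DMSO as squares and the diagonal marking equal reads. The 4 near-identical pairs lie on the diagonal, and miR-2285l against miR-2285y, which differ by 8.7%, scatters around it.

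With a limit of 5% of the mean reads, set after these values had been seen, 8 of the 31 members with recovered reads and a level of at least 5 (25.8%) were part of such a pair. Among the other miRNAs with recovered reads and that level, 9 of 214 (4.21%) were. Rows with means above 400 normalized reads did not enter this count. There, bta-let-7b and bta-miR-3596 had equal group means (12896 in RSV and 14991 in DMSO). So did bta-miR-22-3p and bta-miR-3600 (5891 in RSV and 5542 in DMSO). Some pairs among the 9 were looser, such as bta-miR-652 and bta-miR-425-3p, which differed by 4.61%. At that level no member was paired with a miRNA outside the family. Below it, rows of a few reads could equal rows outside the family. For example, bta-miR-2284j and bta-miR-2312 each had 3 reads, all in DMSO library a. When each pair was counted once, the family's share became 0.0939% in RSV and 0.0911% in DMSO.

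The RefSeq gene table of the cattle assembly ARS-UCD2.0, which is another assembly than the one the reads were mapped to and was used for names and neighbours only, lists 191 genes named MIR2284 or MIR2285 among 1032 miRNA genes. By name, 51 of the 52 members matched 90 of these genes, and bta-miR-2284d matched none. For 3 of the 4 near-identical pairs the table has overlapping genes, namely MIR2285Q with MIR2285Z, MIR2284Z-6 with MIR2285Y, and MIR2284Y-2 with MIR2285U. The genes of bta-miR-2285af and bta-miR-2285g do not overlap in it. In all, 5 pairs of members had overlapping genes, and the remaining pairs were not alike in reads. They were bta-miR-2285o with bta-miR-2284y (430 against 1190 reads) and bta-miR-2285o with bta-miR-2284h-5p (430 against 26 reads). The gene MIR2284J overlaps with MIR2312, which is outside the family.

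Of the 90 genes, 63 (70%) lie within the span of a protein-coding gene, compared with 549 of the 841 other miRNA genes (65.3%). The gene of bta-miR-2284x lies within TIAM1, which encodes an activator of the small GTPase Rac. That of bta-miR-2284i lies within TIAM1 too, and this member had 3 reads in all 6 libraries together. The genes of bta-miR-2285q and bta-miR-2285z lie within SREK1, a splicing regulator, and that of bta-miR-2285aa lies within ERCC3, a helicase of transcription and DNA repair. The genes of bta-miR-2285f, MIR2285F-1 and MIR2285F-2, lie on 2 chromosomes. The only coding gene around either is TBK1, a kinase of innate immunity. The table gives no strand, so whether a miRNA is transcribed with the gene around it cannot be told.

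Members with several genes had the higher median level, although the most abundant member has 1 gene. The median level was 38.8 normalized reads for the 13 members with more than 1 gene and 5.67 for the 38 members with 1 gene. The Spearman correlation of gene number and level was 0.386 over the 51 members, some of which share reads. Among the 3 members with 7 genes, the level was 188 normalized reads in bta-miR-2284y, 31.8 in bta-miR-2284z and 0.546 in bta-miR-2285n.

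**Figure D3:**
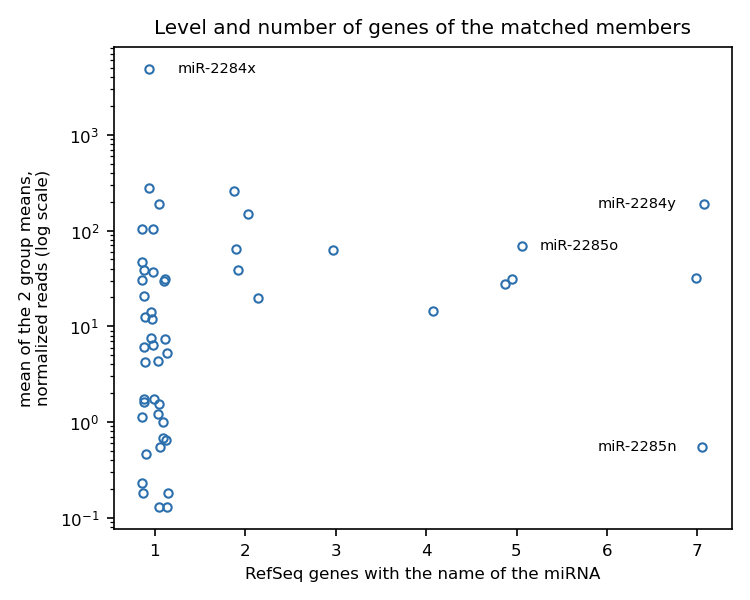
Level of each of the 51 matched members (mean of both group means, normalized reads, log axis) against the number of RefSeq genes that carry its name, with points spread slightly sideways. The member of highest level, miR-2284x, has 1 gene, and members with 7 genes range from 0.546 to 188 normalized reads.

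Treatment with RSV left no member past the threshold. The test, limma voom, models log2 reads and gives precise values more weight, and it ran on the worked-back reads of the 245 miRNAs with recovered reads and a mean of at least 5 normalized reads, with Benjamini-Hochberg adjustment over all of them. Of the 31 members tested, 0 had an adjusted p under 0.05, against 15 of the 245 miRNAs (6.12%), of which 9 were higher (3.67%) and 6 lower (2.45%) in RSV, and the smallest adjusted p of a member was 0.17. Unadjusted, limma voom gave 4 members a p under 0.05 (12.9%), against 57 of the 245 miRNAs (23.3%), and the unweighted limma-trend test gave 0 members after adjustment, against 14 of the 245 miRNAs (5.71%), and 3 (9.68%) before it, against 55 (22.4%). The split of the calls over all miRNAs depended on the scale, with 9 higher and 9 lower with total recovered reads and 9 higher and 11 lower with recomputed median ratios. The groups did not overlap for 7 members (22.6%), against 71 of the 245 miRNAs (29.0%). Of the members 3 were higher and 4 lower in RSV, and of all miRNAs tested 44 were higher (18.0%) and 27 lower (11.0%). Counted over both directions, the share of the members did not exceed that of all miRNAs tested by any of these measures. The 245 miRNAs tested are the less abundant part, since 439 miRNAs had a level of at least 5 and none with a mean above 400 normalized reads was tested. These shares therefore do not describe the abundant miRNAs. These counts moved with single libraries. The calls over all miRNAs numbered 29 without RSV library c and 3 or 4 without a DMSO library, and the members with an unadjusted p under 0.05 numbered 1 without DMSO library a or c (3.23%) and 2 without RSV library a or b or DMSO library b (6.45%), against 15.9% to 20.0% of all miRNAs in these fits.

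The log2 fold change was above 0 for 16 (51.6%) and below 0 for 15 of the 31 members, with a median of 0.0036, and over the 245 miRNAs 51.4% were above 0 with a median of 0.0041. This split depended on the scale, since 11 of the 31 members (35.5%) were above 0 with total recovered reads, against 44.5% of all miRNAs, and 10 (32.3%) with recomputed median ratios, against 43.0%. With each near-identical pair counted once, 12 of 27 members were above 0, and with single libraries left out the number ran from 12 to 19 of 31. Their values ran from −0.72 to 0.65 and those of all tested miRNAs from −3.07 to 1.59. For 23 of the 31 members the 95% interval lay wholly between −1 and 1 on the log2 scale, and for 11 between −0.5 and 0.5. Without bta-miR-2284x, which has no single-library values, the normalized reads of the family summed to 2027, 1988 and 1909 in RSV libraries a, b and c and to 2012, 1910 and 1900 in the DMSO libraries, so the groups overlapped. The means were 1975 ± 59.8 (SD, n = 3) in RSV and 1941 ± 61.9 (SD, n = 3) in DMSO, and their difference of 34.1 was smaller than the spread within either group. With each near-identical pair counted once, the means were 1575 ± 25.4 (SD, n = 3) in RSV and 1569 ± 47.1 (SD, n = 3) in DMSO, a difference of 6.29. As a percentage of the recovered reads of each library, the family without bta-miR-2284x made up 12.8 ± 0.554 (SD, n = 3) in RSV and 12.96 ± 0.344 (SD, n = 3) in DMSO, so the sign of the difference turned while its size stayed under the spread. The recovered reads leave out every miRNA with a mean above 400 normalized reads. This percentage is therefore no share of all miRNA reads, of which the whole family held 0.0999% in RSV and 0.0961% in DMSO.

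**Figure D4:**
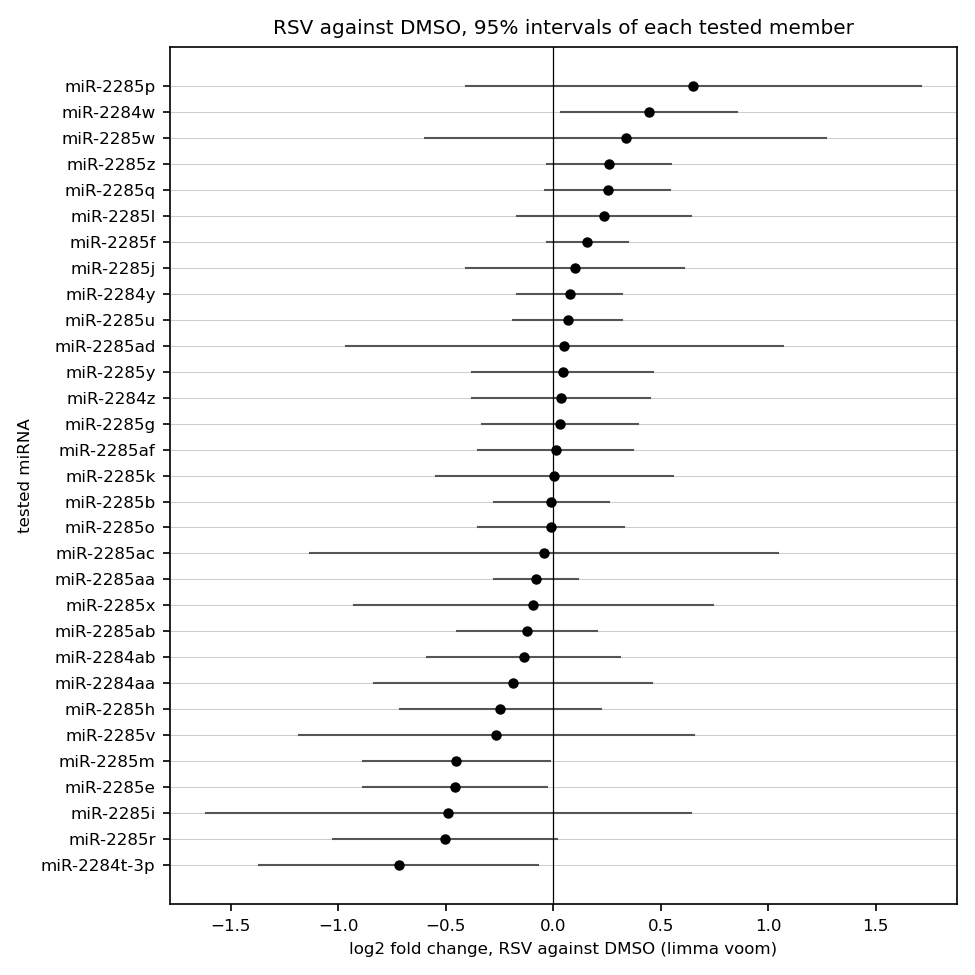
Log2 fold change of RSV against DMSO for each of the 31 tested members (points) with its 95% interval from limma voom (lines, not adjusted for the number of miRNAs). The intervals of 27 members include 0, and the exceptions are miR-2284w above 0 and miR-2284t-3p, miR-2285e and miR-2285m below 0.

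The highest log2 fold changes belonged to bta-miR-2285p, bta-miR-2284w and bta-miR-2285w. For bta-miR-2284w the normalized reads were 40.2, 51.01 and 43.8 in RSV against 28.2, 37.6 and 32.9 in DMSO, without overlap. Its log2 fold change was 0.44 (standard error 0.18, 95% interval 0.035 to 0.85, limma voom adjusted p = 0.17). For bta-miR-2285p they were 5.84, 10.05 and 13.9 in RSV against 6.51, 4.86 and 4.12 in DMSO, where RSV library a fell among the DMSO libraries. It rested on 48 reads in all, and its log2 fold change of 0.65 had a standard error of 0.48, with 1.04 without RSV library a and 0.43 without RSV library c. The 47 reads of bta-miR-2285w gave normalized reads of 9.73, 6.18 and 8.55 in RSV against 4.34, 9.72 and 5.49 in DMSO, with overlap and a log2 fold change of 0.34 (standard error 0.42), which was 0.16 without RSV library a, 0.061 without DMSO library a, 0.53 without RSV library b and 0.64 without DMSO library b.

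At the other end stood bta-miR-2284t-3p, bta-miR-2285r and bta-miR-2285i. For bta-miR-2284t-3p the normalized reads were 8.43, 13.1 and 10.7 in RSV against 14.1, 19.4 and 19.2 in DMSO, without overlap. Its log2 fold change was −0.72 (standard error 0.29, 95% interval −1.37 to −0.070, limma voom adjusted p = 0.17). For bta-miR-2285r they were 25.3, 25.5 and 21.4 in RSV against 30.4, 27.9 and 50.8 in DMSO, without overlap, and DMSO library c stood apart from the other two. Its log2 fold change of −0.50 (standard error 0.23) became −0.27 without that library. With 31 reads in all, bta-miR-2285i had 3.24, 6.18 and 3.21 normalized reads in RSV against 3.25, 7.29 and 8.23 in DMSO, with overlap, and its log2 fold change was −0.49 (standard error 0.51). On leaving out single libraries it ran from −0.91 without DMSO library a to −0.26 without RSV library a, with −0.78 without RSV library b, −0.33 without DMSO library b and −0.27 without DMSO library c.

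Chosen after their values had been seen, bta-miR-2285e and bta-miR-2285m complete the 4 members with an unadjusted p under 0.05. For bta-miR-2285e the normalized reads were 33.1, 40.2 and 24.6 in RSV against 44.5, 43.7 and 46.6 in DMSO, without overlap, and the log2 fold change was −0.46 (standard error 0.19, limma voom adjusted p = 0.17). For bta-miR-2285m they were 25.3, 27.8 and 25.7 in RSV against 40.1, 40.1 and 27.4 in DMSO, where DMSO library c lay within the RSV range, and the log2 fold change was −0.45 (standard error 0.20, limma voom adjusted p = 0.19). The non-overlapping members beside these were bta-miR-2285f and bta-miR-2285l above and bta-miR-2285h below, and for the last the log2 fold change was −0.25 (standard error 0.21).

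The near-identical pairs gave nearly the same difference by construction. The normalized reads of bta-miR-2285q were 113, 126 and 100.5 in RSV against 105, 88.6 and 90.5 in DMSO, so that RSV library c overlapped with DMSO library a. The log2 fold changes were 0.25 (standard error 0.13, limma voom adjusted p = 0.28) in bta-miR-2285q and 0.26 (standard error 0.13, limma voom adjusted p = 0.27) in bta-miR-2285z. In bta-miR-2285af and bta-miR-2285g the normalized reads of RSV library a, 77.2 in either row, exceeded all other libraries, which lay between 55.6 and 66.2, and the log2 fold changes were 0.012 and 0.031. In bta-miR-2284z and bta-miR-2285y they were 0.035 and 0.043.

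The libraries of a group scattered about as much as counting alone would make them. The ratio of the variance within groups to that expected from counting had a median of 1.01 over the 31 members, with quartiles of 0.597 and 1.44, of 0.741 over the 45 tested rows miR-2286 to miR-2487 and of 1.14 over the 147 other named miRNAs tested. No member exceeded a ratio of 3, which 1 of the 45 rows miR-2286 to miR-2487 (2.22%) and 28 of all 245 miRNAs (11.4%) did. The highest ratio of a member was 2.34 in bta-miR-2285v, with 7.78, 11.6 and 16.0 normalized reads in RSV against 20.6, 7.29 and 12.3 in DMSO. In miR-122, the liver marker, it reached 78.8.

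The 20 members below a level of 5 were not tested in the main fit. With a minimum mean of 1 instead, 40 members were tested and limma voom called 0 of them, against 15 of the 390 miRNAs in that fit (3.85%). The 20 members below a level of 5 had between 1 and 26 reads over the 6 libraries, with a median of 5, and 146 reads together. The members bta-miR-2284j, bta-miR-2284k, bta-miR-2284n and bta-miR-2285t had 0 reads in the RSV group, which allows up to 0.796 normalized reads (3 reads over the group), and bta-miR-2284l and bta-miR-2284m had 0 reads in the DMSO group, which allows up to 1.21. Among these, bta-miR-2284j had 3 reads, all in DMSO library a, and the others had 1 read each. The rows of bta-miR-2284k and bta-miR-2285t were identical, and so were those of bta-miR-2284l and bta-miR-2284m, in each case with a single read in the same library. Any row with a single read there is identical, also outside the family, such as bta-miR-2294 to bta-miR-2284k and bta-miR-2360 to bta-miR-2284l. This identity therefore does not mark shared reads. What size of difference could have been detected in the members below a level of 5 was not worked out.

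Only bta-miR-2284t had a row for each arm of its hairpin. The 3p arm held 83 and the 5p arm 5 of the 88 reads (94.3% on the 3p arm, 95% Wilson interval 87.4 to 97.5, counting error only). The 5p arm had 0, 0 and 1 reads in RSV and 2, 0 and 2 reads in DMSO, too few to compare the arm ratio between the groups.

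The family can be set beside miRNAs of the same kind of catalogue, the 141 rows named miR-2286 to miR-2487. These had a lower median level, 1.49 against 12.3 normalized reads, and 45 of them were tested. There 1 was called higher and 1 lower by limma voom (4.44%), 19 log2 fold changes were above and 26 below 0, and the median was −0.049. The 403 other named cattle miRNAs had a higher median level than the family, 190 normalized reads. Of them, 147 were tested, with 8 called higher and 5 lower (8.84%) and a median log2 fold change of 0.043. Among the 22 tested of 169 candidate miRNAs without a miRBase name none was called, and their median was −0.15. The median absolute log2 fold change was 0.14 in the family, 0.28 in the rows miR-2286 to miR-2487, 0.25 in the other named miRNAs and 0.29 in the candidates, with median standard errors of 0.19, 0.34, 0.20 and 0.37. Whether the family differed from these sets was not tested.

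**Figure D5:**
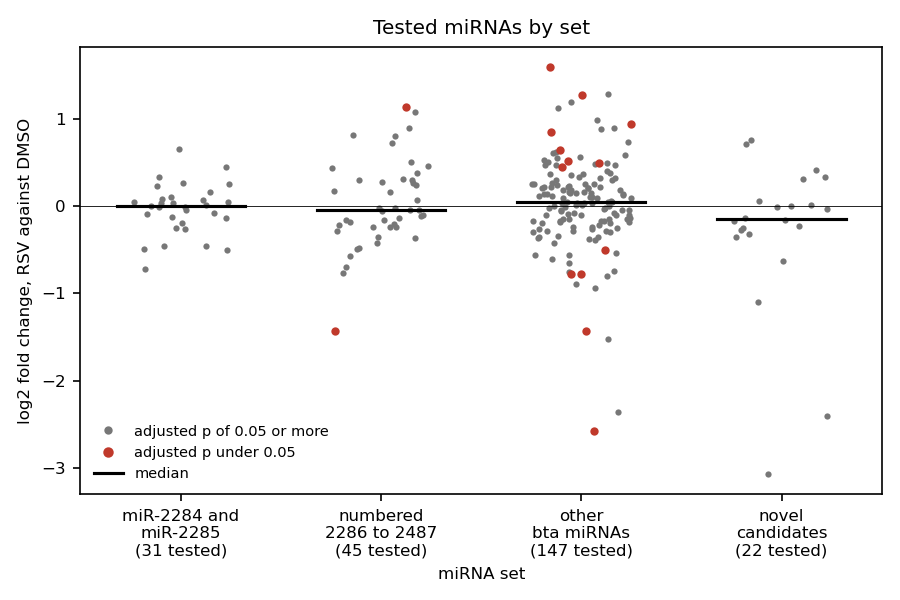
Log2 fold change of RSV against DMSO for the 245 tested miRNAs by set, with 1 point per miRNA, calls of limma voom in red and a line at the median, points spread sideways. The 31 family members lie between −0.72 and 0.65 with no call, and the 15 calls lie in the rows miR-2286 to miR-2487 and among the other named miRNAs.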

How the data were processed

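Per the labels and the study's methods, the authors mapped miRNA reads to UMD_3.1.1 (bosTau8) with Bowtie 0.12.9 and named them by miRBase. The deposited table gives group means of read counts over size factors. The authors' fold changes and p-values in the same table were not used, and the mRNA rows, whose decimal points are damaged, were left out.

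Here, whole reads per library were searched for means up to 400 normalized reads. Each library was held within 0.4 to 2 times a group mean of 20 or more, without these bounds where that gave no combination. Of 583 miRNAs with both means up to 400, 571 had a single combination in each group with fewer than 0.1 expected by chance. Only these were kept. The 6 libraries held 10834 to 23638 recovered reads, which is not their full depth. A simulation with a dispersion of 0.02 gave 567 unique combinations for 571 means of the RSV group, all 567 right. Rows as uneven between libraries as miR-122 were not simulated, so recovery was not checked for them.

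RSV was compared with DMSO in R 4.3.3 with the voom method of limma 3.58.1, where library sizes followed from the size factors. In simulated reads of 571 miRNAs, of which 242 were tested and 60 changed by a log2 fold change of 1.0 (dispersion 0.02), it recovered 44 (73.3%) and called 2 others. Smaller changes were not simulated. Other steps used Python 3.11.15 with numpy 2.4.6, scipy 1.17.1, pandas 2.3.3, numba 0.67.0 and matplotlib 3.10.9.

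The naming rule took the 10 of highest level, the 3 with the highest and the 3 with the lowest log2 fold change, all calls, and members with identical values. Other members named, such as those of near-identical pairs, with non-overlapping groups or with the largest spread, were chosen after their values were seen. Members and lists were chosen with earlier results of these data known. Alternatives were other minimum means, tests, scales and pseudocounts, identical or near-identical rows counted once, and each library left out. Mature sequences and target prediction were not used here, and coordinates are not given because the gene table is of another assembly.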

Additional observations from a re-analysis of the deposited data

How the results depend on the processing

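No member was called under any alternative tried for the test: a minimum mean of 1 or 10, limma-trend, total recovered reads or recomputed median ratios as the scale, identical rows counted once, or each library left out. In the same order, 3.85%, 8.12%, 5.71%, 7.35%, 8.20% and 5.76% of all miRNAs tested were called, and 1.22% to 11.8% with single libraries left out. Counting identical rows once removed no member. Dropping near-identical rows from the same fit could add no call, because the adjusted p-values stayed as they were. The calls over all miRNAs did move, from 15 to 29 without RSV library c and to 3 or 4 without a DMSO library, and the recomputed median ratios gave 9 higher and 11 lower against 9 and 6. The median log2 fold change of the members ran from −0.040 to 0.040 on leaving out single libraries and was −0.050 with recomputed median ratios, where the median over all miRNAs was −0.051.

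With both means at 5 or more, 18 members had a higher and 13 a lower mean in RSV, against 28 and 24 of all 52; fewer members enter this count. The family's share moved to 0.0939% (RSV) and 0.0911% (DMSO) with near-identical pairs counted once, because fewer rows are summed. Values near 0 changed sign: bta-miR-2285o to 0.0051 with limma-trend, and bta-miR-2285af to −0.0092 with limma-trend, −0.032 with total reads and −0.044 with median ratios. When each library was left out, the log2 fold change ran from −0.019 to 0.13 in bta-miR-2284y, −0.037 to 0.12 in bta-miR-2285u, −0.086 to 0.079 in bta-miR-2285b, −0.11 to 0.077 in bta-miR-2285o and −0.15 to 0.088 in bta-miR-2285af. No paired analysis was possible because the recovered libraries carry no replicate number. The members with 1 to 26 reads over the 6 libraries fell under the minimum mean of 5 in the main test.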
